A study of Mus musculus with 33 samples.

Results

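Unstressed livers of C57BL/6J mice (B6) were compared with those of CAST/EiJ mice (CAST) over 5 control libraries, 3 of B6 (controls 1, 2 and 3) and 2 of CAST (controls 2 and 3), out of 33 samples in the series. The mice were males of 15 to 23 weeks that received DMSO, the vehicle of tunicamycin (TM), by injection into the abdomen and had their organs collected 24 h later according to the sample records, where the methods of the study give a shorter time. TM blocks N-linked glycosylation and so causes stress of the endoplasmic reticulum, and the TM-treated livers, the control kidneys and the control livers of the B6 by CAST F1 cross serve here as further readings of the same genes. B6 is the classical inbred laboratory strain and the mouse reference genome, and CAST is an inbred strain derived from wild mice of another subspecies. Both are single inbred lines, so that a difference between them is a difference between these lines and not between subspecies. Samples were chosen by their records alone. The study used several mice of each strain and left out outlying samples before deposit.

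Of 44698 genes listed in the B6 liver table and 28722 in the CAST liver table, 28215 were in both, and 19161 of these had a mean of at least 5 over the 5 libraries and were tested. Values are read counts brought to one scale over the 5 libraries, called normalised read counts below. Fold changes are log2 of the normalised count plus 1, B6 minus CAST, with the standard error (SE) of the limma fit, and an adjusted p is that of limma after Benjamini-Hochberg adjustment over all tested genes. A gene was called different where its adjusted p was under 0.05 and the strains differed by 1.5-fold or more.

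The liver makes most plasma proteins, bile acids, fatty acids and cholesterol, and carries the cytochrome P450 enzymes and the conjugating enzymes that clear drugs and steroids. In mice, many of these genes differ between the sexes under the pattern of growth hormone release, including the major urinary proteins (Mups), small carriers of pheromones that the liver secretes for excretion in urine. Interferon-stimulated genes are kept at a low level in unstressed tissue by basal interferon signalling and rise strongly on infection.

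The 5 libraries held between 10513517 and 15125429 reads. B6 control 2 stood apart, with reads on 40212 genes where the other 4 libraries had reads on 23479 to 26784. Its log2 values correlated with those of the other B6 livers at 0.914 and 0.916, where B6 controls 1 and 3 correlated at 0.979 and the CAST pair at 0.959. Olfactory and vomeronasal receptor genes, which liver is not known to use, held 579 CPM (counts scaled to a common library total) in B6 control 2 and 39.4 to 62.5 CPM in the other 4 libraries. CAST control 2 carried transcripts of exocrine pancreas, the pancreatic lipase gene Pnlip having 0.92, 3.00 and 0.82 counts in the 3 B6 livers, against 330.4 and 0 in CAST controls 2 and 3. The 22 genes listed as hepatocyte identity genes were all tested and none was called by limma, with a median log2 fold change of -0.11. Of the 22, 2 had an unadjusted p below 0.05, edgeR called 0 and DESeq2 called 1.

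Between the strains, 554 genes (2.89% of those tested) were higher in B6 and 609 (3.18%) were higher in CAST, 6.07% in all. In 334 of the 554 and 460 of the 609, every library had a count of at least 10. An unadjusted p below 0.05 was reached by 3337 genes, and the B6 and CAST values did not overlap in 6866 genes (35.8%). The counts rested on single libraries: without B6 control 3 they were 319 higher in B6 and 467 higher in CAST, and without CAST control 3 they were 282 and 190, the one remaining CAST library being taken to vary like the B6 livers. Without B6 control 2 they were 711 and 754. The median log2 fold change of all tested genes was -0.03. On the values as deposited, where the tables of the strains were scaled apart, it was 0.32, and the split was then 1101 higher in B6 and 439 higher in CAST, so that changes are given relative to the common scale.

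Genes of fatty acid desaturation were among those with the largest differences in the direction of B6. Scd1, the stearoyl-CoA desaturase that makes oleate and palmitoleate in liver, had counts of 184132, 88593 and 165253 in B6 controls 1, 2 and 3, against 2682 and 4462 in CAST controls 2 and 3. Every B6 liver was far above both CAST livers, although the B6 livers differed among themselves by more than the CAST livers did in absolute count. The log2 fold change was 5.33 (SE 0.39, adjusted p = 1.75e-05), and Scd1 took 1.52%, 0.849% and 1.33% of reads in B6 livers, against 0.0208% and 0.0316% in CAST livers. Its neighbours moved with it. Scd3 had counts of 1105, 529 and 947 in B6 livers and 24.6 and 23.3 in CAST livers. Scd2, the desaturase best known from brain, had 1235, 596 and 988 in B6 livers and 105 and 109 in CAST livers. Scd4, chosen after its values were seen, had 407, 169.8 and 334 in B6 livers, against 10.1 and 9.55 in CAST livers, and all 4 genes lie next to each other on chromosome 19 among tested genes in the GRCm38 annotation. The adjusted p of Scd2, Scd3 and Scd4 were 2.15e-04, 1.00e-05 and 3.22e-05. The 4 genes are related in sequence, and the sources used here do not say how reads shared between them were assigned.

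**Figure D1:**
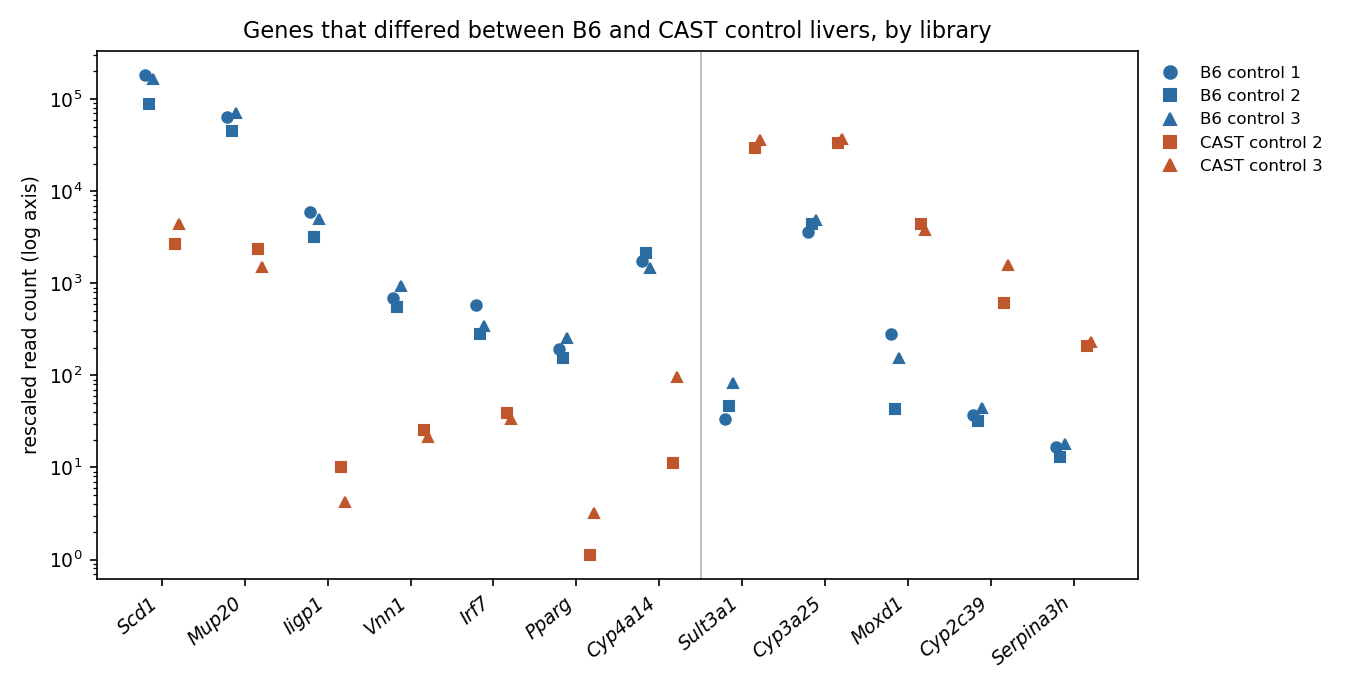
Normalised read count (log axis) of 12 genes in each of the 3 B6 control livers (blue, left of each pair) and the 2 CAST control livers (orange, right). The 7 genes left of the grey line were higher in every B6 liver and the 5 right of it were higher in every CAST liver, such as Scd1 with counts of 184132, 88593 and 165253 in B6 livers and 2682 and 4462 in CAST livers.

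Over the 43 genes of sterol and fatty acid synthesis that were tested, 12 were called higher in B6, 1 was called higher in CAST and 30 were not called. In all 30.2% were called, against 6.07% of all genes. The median log2 fold change was 0.90, against -0.03 for all genes, and the B6 value was the higher one in 40 of 43. The fatty acid desaturase gene Fads2 had 5645, 4835 and 6449.5 in B6 livers, against 1624 and 1474 in CAST livers (log2 fold change 1.86, SE 0.26, adjusted p = 0.00141). Elovl6, which lengthens palmitate, and Me1, the malic enzyme that supplies NADPH, had log2 fold changes of 1.76 and 1.79. Acacb, Acss2, Gpam and Fads1, enzymes that make or esterify fatty acids, had 1.30, 1.24, 1.39 and 1.07. The cholesterol pathway gave fewer calls, with Pmvk (phosphomevalonate kinase) at 1.98 and Sc5d at 1.32, and Pmvk lost its call without CAST control 2 (adjusted p = 0.0738). The 2 INSIG genes, whose proteins hold the SREBP transcription factors in the endoplasmic reticulum, went opposite ways. Insig1 had 4886, 3839.8 and 5343 in B6 livers, against 859 and 2317 in CAST livers. Insig2 had 1855, 729 and 1743 in B6 livers, against 3227 and 9964 in CAST livers, with its 2 CAST values more than 3-fold apart and an adjusted p of 0.0286, which was 0.0781 without B6 control 2 and 0.388 without CAST control 3. Without CAST control 2 the median was 0.23 and the B6 value was the higher one in 26 of 43, and without CAST control 3 the median was 1.41. The number of members called higher in B6 was 4 without CAST control 2, 8 without B6 control 3 and 17 without CAST control 3.

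Pparg, the nuclear receptor that drives fat storage in adipose tissue and is low in normal liver, had counts of 192, 153 and 253 in B6 livers, against 1.12 and 3.18 in CAST livers. The CAST values stand for 1 and 3 reads, so the size of the log2 fold change of 6.04 (SE 0.41, adjusted p = 1.12e-05) depends on the added count. Over 46 tested genes of fatty acid oxidation and the targets of PPAR-alpha, the median was 0.29. Of the 46, 8.7% were called, near the 6.07% of all genes, with 4 higher in B6 and none in CAST. The 4 were Cyp4a14 and Cyp4a10, fatty acid omega-hydroxylases, Vnn1, a pantetheinase, and Acot3, an acyl-CoA thioesterase. Cyp4a14 had 1746, 2121 and 1466 in B6 livers, against 11.2 and 95.5 in CAST livers, whose values lay over 8-fold apart. Vnn1 had 688, 551 and 932 in B6 livers and 25.8 and 21.2 in CAST livers. Its log2 fold change was 4.86 (SE 0.30, adjusted p = 6.81e-06). Other members, among them the receptor gene Ppara with a log2 fold change of 1.04 (adjusted p = 0.134), did not pass. The 4 calls became 8 without B6 control 2, and Acot3 lost its call without CAST control 3 (adjusted p = 0.0577). The median was 0.47 without B6 control 2 and 0.16 without B6 control 3.

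Interferon-stimulated genes, the list with the most tested genes, also had the most calls higher in B6. Of 67 tested, 21 were higher in B6, 1 was higher in CAST and 45 were not called, and the median log2 fold change was 1.01. In all 32.8% were called, against 6.07% of all genes. The B6 value was the higher one in 62 of 67. Iigp1, an interferon-induced GTPase that acts on the vacuoles of intracellular parasites, had 5932, 3154 and 5051 in B6 livers and 10.1 and 4.24 in CAST livers (log2 fold change 9.22, SE 0.37, adjusted p = 4.30e-07). Irf7, the transcription factor that amplifies type I interferon production, had 574, 279 and 345 in B6 livers, against 39.2 and 33.9 in CAST livers. The groups did not overlap in either gene, and B6 control 1 was the highest library in both. Trim12a, Trim30d and Gbp10 had log2 fold changes of 3.45, 3.35 and 3.34, and Ifit1, Rsad2 and Usp18 had 2.26, 2.52 and 2.12. Ifi44 had 59.1, 38.9 and 31.2 in B6 livers and no read in either CAST liver. The member higher in CAST was Mx2, an interferon-induced GTPase with antiviral activity, at 146, 79.9 and 71.4 in B6 livers, against 388 and 942 in CAST livers (log2 fold change -2.67, SE 0.41, adjusted p = 0.0027). The count of 21 became 12 without CAST control 3. It was 27 without B6 control 2. Macrophage markers moved partly with the list: 2 of 15 Kupffer cell and macrophage markers were called higher in B6 (Marco and Folr2) and 12 of 15 had the higher value in B6, while their summed count was 4748 to 8084 in B6 livers and 5714 to 6640 in CAST livers. Of 8 lymphocyte markers none was called, 6 had the higher value in B6, their median was 0.72, and their summed counts were 354, 290 and 372 in B6 livers, against 224 and 185 in CAST livers, without overlap. The part of either cell type in the result was not tested, nor was that of aligning each strain to its own genome.

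Interferon-stimulated genes are switched on through a short promoter element bound by the STAT and IRF transcription factors, and the promoters of 3 genes that were higher in B6 are shown because they hold matches to it. Each window runs from 250 bases before to 50 bases after the RefSeq start in GRCm38.p6, on the strand of the gene, and capitals mark matches, on either strand, to the motif searched, which is GAAA, any 2 bases and GAAA again. On the printed strand the matches can also read TTTC, 2 bases and TTTC. The matches in the Apol9b window overlap each other.
Apol9b (chr15:77728822-77729121, plus strand): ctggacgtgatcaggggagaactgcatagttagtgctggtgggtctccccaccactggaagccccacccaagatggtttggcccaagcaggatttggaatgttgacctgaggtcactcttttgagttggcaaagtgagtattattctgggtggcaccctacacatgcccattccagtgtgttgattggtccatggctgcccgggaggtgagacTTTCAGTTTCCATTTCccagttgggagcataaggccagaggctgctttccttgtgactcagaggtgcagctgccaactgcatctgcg
Trim30d (chr7:104507800-104508099, minus strand): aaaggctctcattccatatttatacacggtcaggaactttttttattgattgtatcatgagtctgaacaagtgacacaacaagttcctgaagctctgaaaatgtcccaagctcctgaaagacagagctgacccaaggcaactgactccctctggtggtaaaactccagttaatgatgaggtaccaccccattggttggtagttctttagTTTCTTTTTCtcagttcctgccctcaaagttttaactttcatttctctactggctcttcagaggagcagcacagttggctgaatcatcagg
Ifit1 (chr19:34640639-34640938, plus strand): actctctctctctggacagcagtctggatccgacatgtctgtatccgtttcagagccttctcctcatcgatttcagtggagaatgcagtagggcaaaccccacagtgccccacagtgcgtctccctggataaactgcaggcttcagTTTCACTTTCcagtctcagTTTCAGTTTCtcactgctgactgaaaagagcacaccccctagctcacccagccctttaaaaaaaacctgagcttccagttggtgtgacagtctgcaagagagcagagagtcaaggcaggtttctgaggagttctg
A window was available for 14 of the 21 interferon-stimulated genes higher in B6, and 10 of the 14 (71.4%) held a match. Among all 45 tested members with a window, 31 (68.9%) held one, against 1079 of 27025 RefSeq genes (3.99%). The sequences are those of the B6 reference, so they say nothing of the CAST alleles.

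Apol9a and Apol9b, apolipoprotein L genes that interferon also induces, were among the most different genes outside that list. Apol9b had 1218, 597 and 657 in B6 livers and 10.1 and 5.30 in CAST livers. Apol9a had 919.8, 373 and 457 in B6 livers, against 19 and 25.5 in CAST livers, and the copies are so alike that reads may be shared between them. Both were called, with adjusted p of 3.71e-06 for Apol9b and 3.98e-05 for Apol9a. Of 25 tested genes of MHC class I and its peptide loading, 3 were higher in B6 and 1 in CAST. That is 16% called, against 6.07% of all genes. H2-T22 and Nlrc5, the transactivator of class I genes, had log2 fold changes of 1.75 and 1.44, and H2-Q2 had -2.71. Nlrc5 lost its call without CAST control 3 (adjusted p = 0.133). H2-K1, a classical class I gene, had 1.25 (adjusted p = 0.0335) and lost its call without B6 control 1, B6 control 3 or either CAST library, at adjusted p of 0.107 to 0.218. These genes differ in sequence between the strains, which can change how many reads align. None of 9 MHC class II genes in the list, which does not hold H2-Ea-ps described further on, was called by limma, edgeR or DESeq2, and 2 had an unadjusted p below 0.05.

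**Figure D2:**
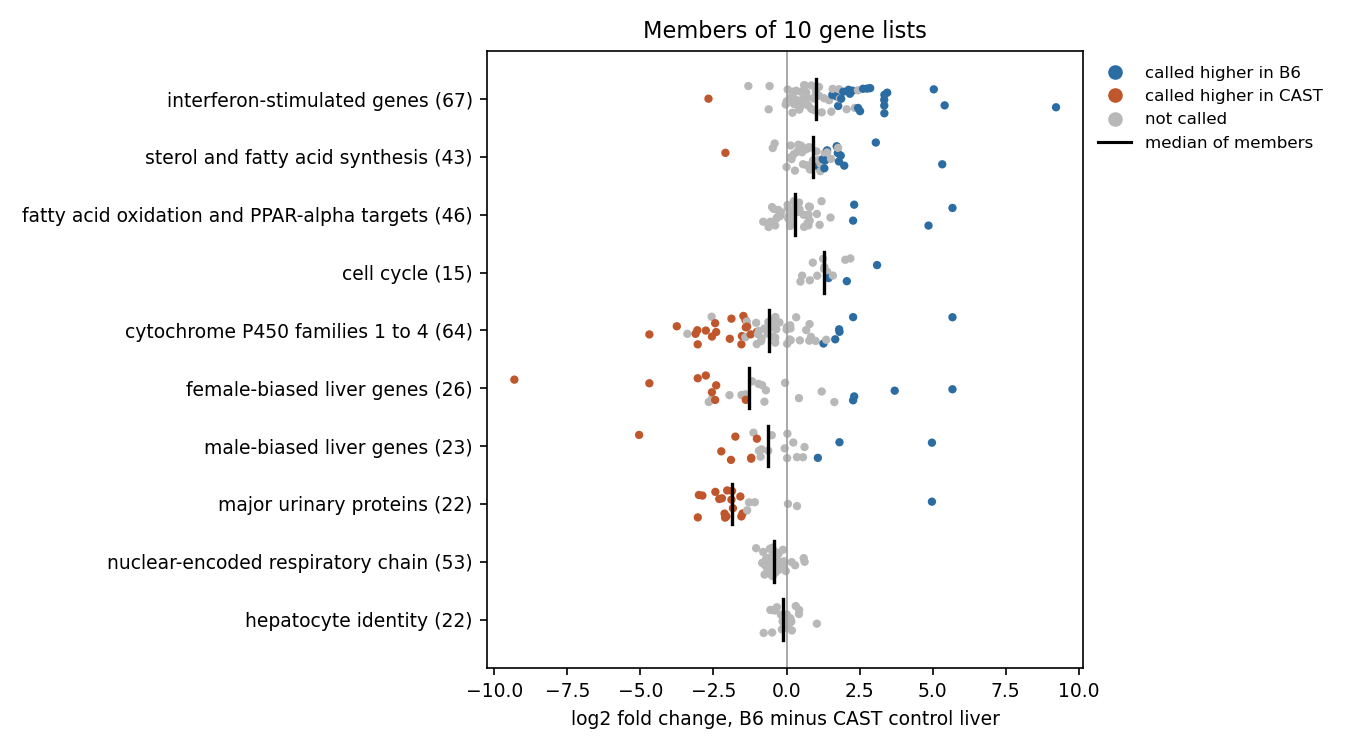
Log2 fold change (B6 minus CAST control liver) of every tested member of 10 gene lists, with the number tested in parentheses. Blue points were called higher in B6, orange points higher in CAST and grey points were not called, and black bars give the medians, such as 1.01 for interferon-stimulated genes and -1.87 for major urinary proteins.

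Conjugating enzymes held some of the largest differences in the direction of CAST. Sult3a1, an amine sulfotransferase that mouse liver makes mainly in females, had 33.2, 46.9 and 82.8 in B6 livers, against 29806 and 36192 in CAST livers (log2 fold change -9.31, SE 0.35, adjusted p = 4.30e-07). Its relative Sult3a2 had 8.31, 17 and 24.6 in B6 livers and 8141 and 16964 in CAST livers. Both genes were at over 8000 counts in each CAST liver and under 100 in each B6 liver. F1 control livers had 15373, 10886 and 14837 counts of Sult3a1, between the parental strains. Ugt1a10 had 23.1, 17 and 12.3 in B6 livers, against 1145 and 1773 in CAST livers. The genes of its locus share their last exons, so reads cannot all be assigned to one of them, and Ugt1a5 of the same locus went the other way with 513, 252 and 489 in B6 livers, against 40.3 and 72.1 in CAST livers. Of 27 tested glucuronosyl- and sulfotransferases, 5 were higher in B6 and 4 in CAST (33.3% called, against 6.07% of all genes).

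Glutathione transferases and carboxylesterases also moved both ways within each family. Of 25 tested glutathione transferases, 4 were higher in B6 and 5 in CAST (36% called, against 6.07% of all genes). Gstt1 had 3294, 1859 and 2836 in B6 livers, against 75 and 62.6 in CAST livers (log2 fold change 5.22, SE 0.30, adjusted p = 3.69e-06). Gstp3 had 143, 79.9 and 193 in B6 livers, against 2974 and 3293 in CAST livers, and Gsta2 had 117, 76.9 and 98.4 in B6 livers, against 445 and 909 in CAST livers. Of 17 tested carboxylesterases, which hydrolyse esters and many drugs, 3 were higher in each strain (35.3% called). Ces2b had 30.5, 38.9 and 42.7 in B6 livers and 1727 and 1224 in CAST livers. Ces2h followed with 19.4, 29 and 23 in B6 livers, against 871 and 894 in CAST livers, whereas Ces2c had 590.1, 453 and 662 in B6 livers, against 102 and 71.1 in CAST livers. The log2 fold changes of Ces2b, Ces2h and Ces2c were -5.26, -5.17 and 2.71, with adjusted p of 3.69e-06, 3.69e-06 and 2.36e-04.

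Cytochrome P450 genes of families 1 to 4 were higher in B6 in 6 of 64 tested and higher in CAST in 19, with a median log2 fold change of -0.59. In all 39.1% were called, against 6.07% of all genes. Members of subfamily 3A oxidise steroids and many drugs. Cyp3a25 had 3577, 4367 and 4852 in B6 livers and 33573 and 36715 in CAST livers. Cyp3a59 had 524, 584 and 611 in B6 livers, against 4641 and 5279 in CAST livers. The log2 fold changes of Cyp3a25, Cyp3a59 and Cyp3a57 were -3.05, -3.11 and -3.75. In subfamily 2C, Cyp2c39 had 36.9, 32 and 44.3 in B6 livers, against 618 and 1592 in CAST livers, and Cyp2c69 had a log2 fold change of -3.04. In subfamily 2D, Cyp2d12, Cyp2d11 and Cyp2d34 had -1.94, -1.88 and -1.54. Those higher in B6 were Cyp4a14, Cyp4a10, Cyp2u1, Cyp2j6, Cyp2r1 and Cyp2b10, with log2 fold changes between 1.27 and 5.68. The count of 19 became 11 without CAST control 3, and the count of 6 became 3 without CAST control 2. Subfamilies 2C, 2D and 3A are clusters of close copies.

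Genes that differ between the sexes in mouse liver were split by strain although every animal was male. Of 26 tested genes that are female-biased in mouse liver, 4 were higher in B6 and 8 were higher in CAST, with a median of -1.29. That is 46.2% called, against 6.07% of all genes. Those higher in B6 were Cyp4a14, Cyp4a10, Acot3 and the magnesium transporter gene Nipal1, and those higher in CAST were Sult3a1 and the P450 genes Cyp2c39, Cyp2c69, Cyp2c40, Cyp3a16, Cyp3a41a, Cyp3a41b and Cyp3a44. The P450 genes of subfamilies 2C and 3A belong to clusters of close copies and are not separate readings. Cyp3a16, Cyp3a41a, Cyp3a41b and Cyp3a44 lie in the same run of neighbours called higher in CAST. Of 23 tested male-biased genes, 3 were higher in B6 and 7 were higher in CAST (43.5% called), with a median of -0.62. Moxd1, a monooxygenase related to dopamine beta-hydroxylase, had 279, 42.9 and 153 in B6 livers, against 4433 and 3750.4 in CAST livers (log2 fold change -5.04, SE 0.58, adjusted p = 3.73e-04). Susd4 had 264, 185 and 271 in B6 livers, against 1271 and 976 in CAST livers. Cyp7b1, which hydroxylates oxysterols on the way to bile acids, had 4348, 2245 and 6577 in B6 livers, against 16138 and 13844 in CAST livers (adjusted p = 0.0159), and lost its call without CAST control 2 (adjusted p = 0.086) and without CAST control 3 (adjusted p = 0.104). The count of 8 female-biased genes became 12 without B6 control 2, and the count of 7 became 4 without B6 control 1, 4 without CAST control 2 and 2 without CAST control 3. The male-biased median was -0.18 without CAST control 3. Both lists thus had more members higher in CAST, and Mup20 was among the 3 male-biased genes higher in B6.

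Major urinary proteins had the largest share of called members of any list with over 10 tested genes, with 1 of 22 higher in B6 and 16 higher in CAST, so that 77.3% were called, against 6.07% of all genes. The 22 genes together took 5.88%, 3.63% and 5.68% of reads in B6 livers, against 13.8% and 10.3% in CAST livers. Mup12 had 24481, 12108 and 22789 in B6 livers and 152639.8 and 126663 in CAST livers. The log2 fold changes of the 16 ran from -3.04 (Mup6) to -1.51 (Mup22), and the groups did not overlap in any of them. Mup20, which encodes the male pheromone darcin, went the other way at 64164, 44837 and 71629.7 in B6 livers, against 2339 and 1503 in CAST livers (log2 fold change 4.98, SE 0.33, adjusted p = 9.36e-06). B6 control 2 was the lowest B6 library for all of these genes. The count of 16 became 10 without CAST control 2, 9 without CAST control 3 and 14 without B6 control 2. Most Mup genes are near-identical copies, a read fits many of them, and the CAST reads were aligned to another assembly whose set of copies was not examined here. The members are therefore not separate readings, and a difference in the family as a whole cannot be told apart from a difference in how its reads were placed. Mup20 is one of the members that differ most in sequence from the rest.

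**Figure D3:**
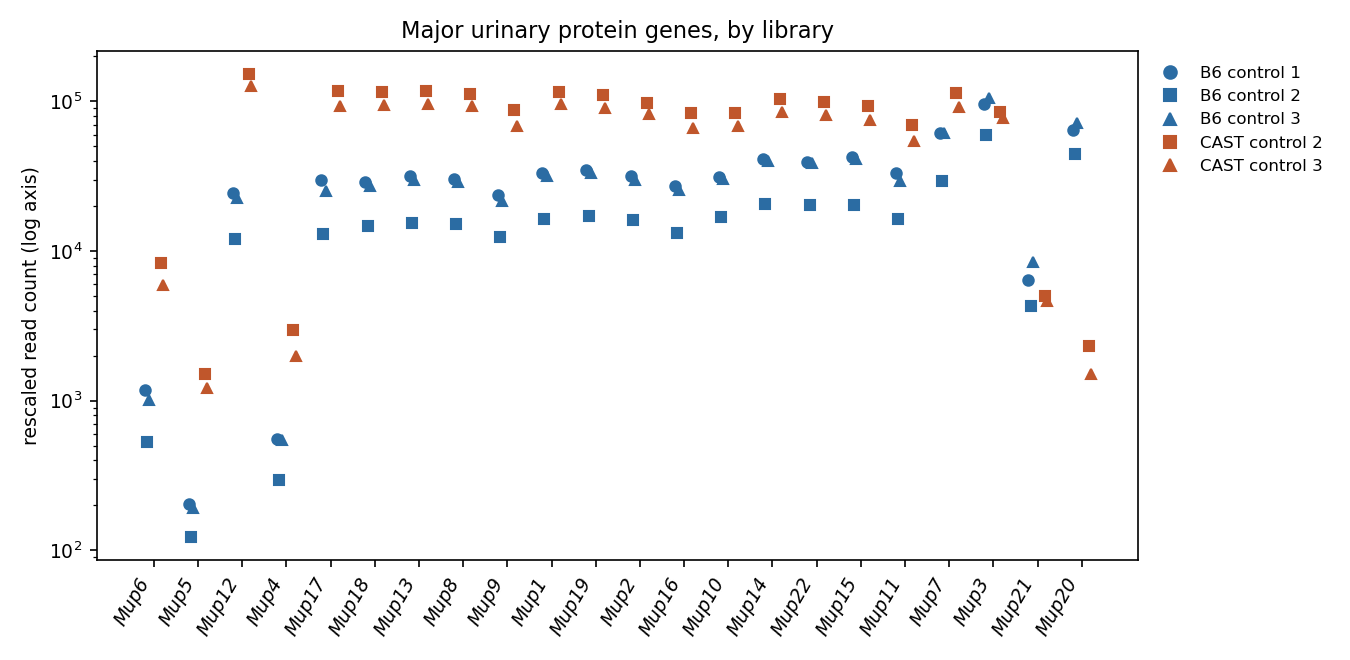
Normalised read count (log axis) of the 22 tested major urinary protein genes in each of the 3 B6 control livers (blue) and the 2 CAST control livers (orange), ordered by fold change. The 16 called members on the left lie higher in CAST, and Mup20 at the right end lies higher in B6 (64164, 44837 and 71629.7 in B6 livers, 2339 and 1503 in CAST livers).

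Bile acid genes split evenly, with 3 of 30 tested higher in each strain (20% called, against 6.07% of all genes). Slc10a2, the bile acid uptake transporter of ileum and bile ducts, had 449, 305 and 371 in B6 livers, against 21.3 and 31.8 in CAST livers (log2 fold change 3.78, SE 0.31, adjusted p = 3.22e-05), while the cholangiocyte markers summed to 638 to 762 in B6 livers and 722 to 749 in CAST livers. Cyp39a1, which hydroxylates an oxysterol, had 115, 201 and 99.2 in B6 livers, against 465 and 505 in CAST livers, and lost its call without CAST control 3 (adjusted p = 0.0766). Hsd17b6, which interconverts androgens, had 370.3, 606 and 746 in B6 livers and 4345 and 2775 in CAST livers. Its log2 fold change was -2.65 (SE 0.34, adjusted p = 7.19e-04). The steroid-reducing aldo-keto reductase gene Akr1c18 had 0.92, 8.99 and 1.64 in B6 livers, against 1598 and 1560.2 in CAST livers, so that B6 controls 1 and 3 stood at 1 and 2 reads.

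Among secreted proteins, 7 of 23 serpins of clade A were called (30.4%), 2 higher in B6 and 5 in CAST. Serpina7, the thyroxine-binding globulin, had 1005, 395 and 1096 in B6 livers, against 47 and 43.5 in CAST livers (log2 fold change 4.04, SE 0.40, adjusted p = 1.60e-04). The 5 higher in CAST were all members of the duplicated Serpina3 cluster. Serpina3h had 16.6, 13 and 18 in B6 livers, against 211 and 233 in CAST livers, and Serpina3c had 84, 40.9 and 45.1 in B6 livers, against 514 and 667 in CAST livers. Of 34 complement genes, 1 was higher in B6 and 2 were higher in CAST (8.82% called, near the 6.07% of all genes). The 2, C6 and C8b of the membrane attack complex, had log2 fold changes of -1.21 and -1.21, and both lost their calls without B6 control 1, CAST control 2 or CAST control 3 (adjusted p = 0.0755 to 0.268). None of 28 coagulation genes was called by limma or edgeR, DESeq2 called 1, and 3 had an unadjusted p below 0.05.

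Other genes with large differences stood outside these groups. Nox4, a NADPH oxidase, had 447, 654 and 804 in B6 livers, against 41.4 and 12.7 in CAST livers. Sucnr1, the succinate receptor of stellate cells, had 336, 265 and 417 in B6 livers, against 22.4 and 15.9 in CAST livers. Slc3a1, a subunit of the cystine transporter, had 783, 461 and 336 in B6 livers and 16.8 and 43.5 in CAST livers. Camk1d, a calmodulin-dependent kinase gene, had 506, 811 and 707 in B6 livers, against 28 and 19.1 in CAST livers. The adjusted p of Nox4, Sucnr1, Slc3a1 and Camk1d were 1.01e-04, 2.46e-05, 2.15e-04 and 9.36e-06. Defb1, an antimicrobial defensin, had 7.39, 7.99 and 8.20 in B6 livers, against 470.4 and 3170.2 in CAST livers. Gsdma3, a pore-forming gasdermin, had 1.85, 9.99 and 4.10 in B6 livers, against 503 and 840.0 in CAST livers. Tas1r1, a subunit of the umami taste receptor, had 0.92, 19 and 4.92 in B6 livers, against 494 and 1362 in CAST livers.

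Among genes of the endoplasmic reticulum stress response, 3.85% of chaperones and isomerases and 0% of PERK, ATF4 and CHOP targets were called. Of all genes, 6.07% were called between the unstressed livers, beside 7.69% of NRF2 and antioxidant genes. Lists of 26 genes are too short to separate these shares. Of 26 chaperones and disulfide isomerases of the endoplasmic reticulum, only Ero1lb, an oxidase that drives disulfide formation, was called, at 1061, 779.9 and 1106 in B6 livers, against 339 and 356 in CAST livers, and it lost its call without CAST control 3 (adjusted p = 0.0556). None of 26 targets of PERK, ATF4 and CHOP and none of 20 circadian clock genes was called. Of 26 NRF2 and antioxidant genes, Gclm, which makes the precursor of glutathione, was higher in B6 (log2 fold change 1.55) and Nqo1, a quinone reductase, was higher in CAST (-1.61), both without a call when CAST control 3 was left out. Among 53 nuclear genes of the respiratory chain none was called, and the value was lower in B6 in 49, with a median log2 fold change of -0.43 on the common scale, -0.14 without B6 control 2, -0.28 without CAST control 3 and -0.07 on the values as deposited. At an unadjusted p below 0.05, limma had 3 of the PERK list, 4 of the clock list and 7 of the respiratory chain list, edgeR called none of the 3 lists, and DESeq2 called 1 respiratory chain gene.

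Markers of other cell types were called in 13.3% of the Kupffer cell list, 7.14% of the stellate cell list, 10% of the cholangiocyte list, 25% of the erythroid list and 22.2% of the pancreas and kidney list, each of 8 to 15 tested genes, against 6.07% of all genes. None of 15 endothelial, 8 lymphocyte and 3 neutrophil markers was called by limma or edgeR, with 3, 1 and 0 at an unadjusted p below 0.05 and 1 endothelial call by DESeq2. Of the others, 1 of 14 stellate cell and fibroblast markers (Lum) was higher in B6 and 1 of 10 cholangiocyte markers (Anxa13) was higher in CAST. Lum lost its call without B6 control 3, CAST control 2 or CAST control 3 (adjusted p = 0.109 to 0.176). In whole liver, more cells of a type and more RNA per cell cannot be told apart. Haemoglobin genes were not called and overlapped between the strains, Hbb-bs having 2396, 1139 and 4411 in B6 livers and 2349 and 6316 in CAST livers. Alas2, the erythroid enzyme that starts haem synthesis, was called, with 1177, 997 and 1300.1 in B6 livers, against 137 and 225 in CAST livers (log2 fold change 2.71, SE 0.29, adjusted p = 2.29e-04), and so was Klf1, an erythroid transcription factor, with 49.9, 42.9 and 47.6 in B6 livers, against 12.3 and 7.42 in CAST livers. All 15 tested cell cycle genes had the higher value in B6, with a median log2 fold change of 1.30 and summed counts of 1143, 795 and 855 in B6 livers, against 370 and 291 in CAST livers. Of these, 3 were called (20%, against 6.07% of all genes). Ccnd1, the D-type cyclin of the G1 phase, had 464, 237 and 318 in B6 livers, against 89.6 and 66.8 in CAST livers. Top2a and Mki67, genes of dividing cells, had log2 fold changes of 3.10 and 1.44. Most pancreatic genes of the list were high in CAST control 2 alone. Amy2a5, the pancreatic amylase gene, was called with 1.85, 3.99 and 4.10 in B6 livers, against 91.8 and 17 in CAST livers, and the lipase and protease genes of the list were at 0 in CAST control 3. The part of pancreatic RNA in the amylase value of CAST control 2 was not tested.

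Each strain was aligned to its own genome, so a gene that is missing, duplicated or annotated otherwise in one assembly can appear different without a difference in RNA. Several measurements bear on this. H2-Ea-ps, the class II alpha-chain gene that B6 carries with a deleted promoter, had 0.92, 2.00 and 0 in B6 livers, against 255 and 253 in CAST livers. It was chosen after its values were seen, and B6 kidneys gave 1.04, 0 and 0 counts, against 344, 220.1 and 228 in CAST kidneys. In all, 12 genes called higher in B6 had no read in either CAST liver and 2 called higher in CAST had none in the B6 livers. Of the 12, 10 were listed for both kidneys and none of the 10 was at 0 in all CAST control kidneys. Of 4 tested genes with an allele known to be defective in B6 or laboratory strains, Nnt, Mx1 and Oas1b were not called. The other, Mx2, was called higher in CAST (log2 fold change -2.67, adjusted p = 0.0027). Nnt, part of which is deleted in C57BL/6J, had 12.9, 24 and 16.4 in B6 livers and 14.6 and 10.6 in CAST livers. Mx1, truncated in most laboratory strains, had 29.6, 15 and 28.7 in B6 livers, against 57.1 and 61.5 in CAST livers (adjusted p = 0.0912), and Oas1b, which carries a stop codon in them, had 29.6, 13 and 11.5 in B6 livers and 14.6 and 13.8 in CAST livers. A count over a whole gene does not show a truncated product.

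Repeated genes held a large part of the calls in the direction of CAST. Among genes placed on GRCm38, 209 of 608 higher in CAST (34.4%) lay next to another tested gene higher in CAST, where 5.69% of all genes had such a neighbour. Of 553 higher in B6 the number was 91 (16.5%, against 5.65%). Runs of at least 3 neighbours called the same way numbered 27. Those of CAST included a cluster of zinc finger and predicted genes on chromosome 2, 5S ribosomal RNA copies on chromosome 8, and the Mup, Cyp3a, Serpina3, Gsta and amylase clusters. Those of B6 were the Scd genes and Ccl6, Wfdc17 and Wfdc21. Unprocessed pseudogenes, which arise by duplication, were called in 27.9% of 172 tested (13 higher in B6, 35 in CAST). Of 13952 protein-coding genes 5.9% were called, with 456 higher in B6 and 367 higher in CAST. The larger number higher in CAST among all genes thus lay outside protein-coding genes. Ribosomal RNA genes had 38 of 53 higher in CAST and 0 in B6. Small nuclear RNA genes had 28 of 46 higher in CAST and 1 in B6, and small nucleolar RNA genes had 9 of 44 and 0. Zfp970 of the chromosome 2 cluster had 378, 357 and 673 in B6 livers, against 4590.1 and 9187 in CAST livers, and Rprl3, one of several copies related to the RNA of RNase P, had 120.1, 39.9 and 50.9 in B6 livers and 17569 and 14590.0 in CAST livers. The part of alignment and copy number in these values was not tested.

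F1 control livers, whose reads the authors aligned to a masked genome with another aligner, gave a further reading. Of 1132 called genes listed in the F1 table, the F1 mean lay between the means of the parental strains in 910 (80.4%). The share among genes not called was 27.3%. Called genes were selected for parental values that lie apart, which widens the interval, so these shares cannot be compared. Of 554 genes higher in B6, the F1 mean lay nearer to B6 on the log2 scale in 407, and of 578 higher in CAST in 219. Scd1 had 11322, 32318 and 41885 in F1 livers and Iigp1 had 2515, 1315 and 1805, both between the strains. Some genes higher in CAST stayed at the B6 level in F1 livers. Cyp3a57 had 61.7, 59.9 and 50.8 in F1 livers, beside 48, 44.9 and 51.7 in B6 livers and 609 and 719 in CAST livers. Likewise Serpina3h had 8.17, 8.99 and 14.8 in F1 livers, beside 16.6, 13 and 18 in B6 livers and 211 and 233 in CAST livers. Tas1r1 had 9.08, 33 and 4.24 in F1 livers, which is also near its B6 values. The F1 reads went through another aligner and reference, and the effect of that on these genes was not tested. F1 values also came from a rescaling that included the F1 libraries, and the parental values from one that did not. The counts of F1 means between or nearer to the parental strains depend on that difference of scale, which was not removed.

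The same strain contrast was made in TM-treated livers, 2 of B6 and 3 of CAST, none of which entered the comparison of control livers. There 366 of 18765 tested genes (1.95%) were higher in B6 and 590 (3.14%) were higher in CAST. The counts rested on single libraries here too: without B6 TM 1 they were 94 and 234, without CAST TM 2 they were 243 and 286, and without CAST TM 3 the count higher in CAST was 372. B6 TM 3 had reads on 42598 genes, where the other 4 TM libraries had 21918 to 25407, and without it the counts were 403 and 709. Of 1125 genes called between control livers and tested here, 472 were called in the same direction, which is 42% of the control calls and 49.4% of the TM calls, where 5.09% of all genes were called. None was called in the opposite direction, and 1093 had the same sign. TM livers were aligned to the same strain genomes as control livers, so a difference made by alignment or annotation would recur here. Its part was not tested. Scd1 had 35235 and 85634 in B6 TM livers, against 1906, 1598 and 2391 in CAST TM livers (log2 fold change 4.82, adjusted p = 1.63e-04). Sult3a1 had 0 and 29.8 in B6 TM livers, against 19769, 13696 and 9822 in CAST TM livers. Iigp1 had 236 and 333 in B6 TM livers, against 0.65, 20.3 and 5.75 in CAST TM livers. Of 64 interferon-stimulated genes tested in TM livers, 8 were higher in B6 and 2 were higher in CAST, and of 43 genes of sterol and fatty acid synthesis 5 were higher in B6 and 1 in CAST. Among the 22 Mups, 1 was higher in B6 and 19 were higher in CAST. Whether the strain difference of a list changed with TM was not tested.

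Control kidneys, 3 of each strain, showed which differences of the liver were also found in another organ. Between kidneys, 1377 of 22328 genes (6.17%) were higher in B6 and 1036 (4.64%) were higher in CAST. With 1 kidney library left out the counts were 734 to 1712 and 632 to 1309, lowest without B6 kidney control 3 and highest without CAST kidney control 1. Without B6 kidney control 1 or 2 the count higher in B6 was 856 or 784, and without control 2 the count higher in CAST was 672. Of 997 genes called in liver and tested in kidney, 374 were called in the same direction, which is 37.5% of the liver calls and 15.5% of the kidney calls, where 10.8% of all kidney genes were called. Of the 489 higher in B6 liver, 191 were higher in B6 kidney and 14 were higher in CAST kidney. Of the 508 higher in CAST liver, 183 were higher in CAST kidney and 22 were higher in B6 kidney. The difference itself was tested as the interaction of strain and organ over 11 control libraries. It passed an adjusted p of 0.05 in 313 of 1100 genes called in liver and tested, and in 2.81% of all 21134 genes. The 1100 were chosen by the same liver values that enter the interaction, which raises their share, so the shares cannot be compared. Livers and kidneys of a strain may come from the same mice, which the sample records do not tie together, and the fit took the libraries as independent. Deviations of the same-numbered liver and kidney within a strain correlated at 0.22, 0.38 and 0.04 in B6 and at 0.30 and 0.12 in CAST. For differently numbered ones the correlations ran from -0.34 to 0.18 in B6 and from -0.30 to 0.10 in CAST.

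The 2 lists with the most calls higher in B6 liver were also read in kidney. Of all kidney genes 6.17% were higher in B6 and 4.64% in CAST. Of 65 interferon-stimulated genes tested in kidney, 33 were higher in B6 and 2 were higher in CAST. The interaction passed for 2 of the members called in liver. Iigp1 had 256, 251 and 269 in B6 kidneys, against 0, 0 and 0.95 in CAST kidneys, and Trim12a had 137, 186 and 164 in B6 kidneys, against 10.9, 1.78 and 8.53 in CAST kidneys. Both genes were thus higher in B6 in both organs. Kidney and liver reads of a strain were aligned to the same genome, and the part of alignment was not tested. Of 43 genes of sterol and fatty acid synthesis tested in kidney, 9 were higher in B6 and 1 was higher in CAST, and the interaction passed for 5 of the members called in liver, among them Scd1, Fads2 and Elovl6. Scd1 had 11342, 3354 and 2081 in B6 kidneys and 4045, 2724 and 2339 in CAST kidneys, with a log2 fold change of 0.54 (SE 0.51, adjusted p = 0.594) and an interaction of 4.83 (SE 0.79, adjusted p = 0.00463). Pparg had 79.8, 49.5 and 47.5 in B6 kidneys and 68.8, 64.1 and 57.8 in CAST kidneys, values that overlap, with an interaction of 6.39 (SE 0.53, adjusted p = 3.65e-05). Gstt1, called higher in B6 in both organs, had a log2 fold change of 1.26 in kidney and an interaction of 4.01 (adjusted p = 4.94e-05). Akr1c18 was higher in CAST liver but had a log2 fold change of -0.61 in kidney (adjusted p = 0.0715).

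**Figure D4:**
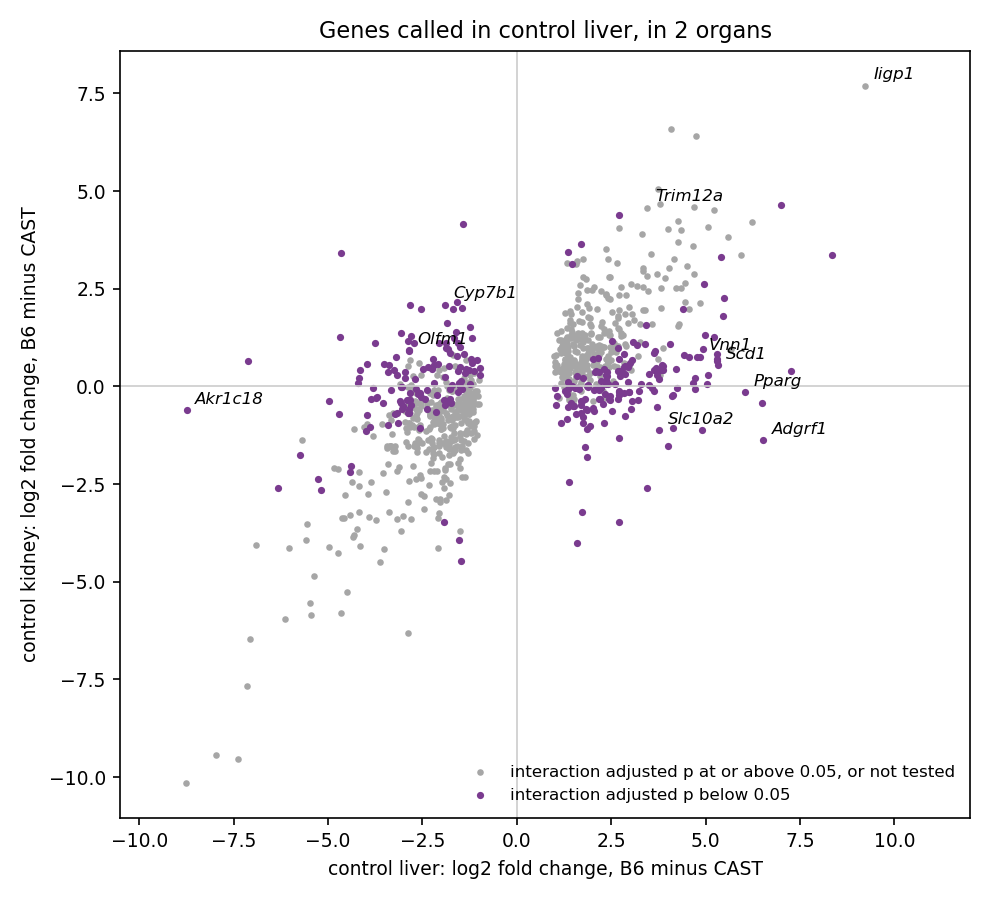
Log2 fold change (B6 minus CAST) in control kidney against that in control liver for the 997 genes called in liver and tested in kidney. Purple points passed the interaction of strain and organ, such as Scd1 at 5.33 in liver and 0.54 in kidney, and grey points did not or were not tested in it, such as Iigp1 at 9.22 and 7.70.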

How the data were processed

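The authors sequenced ribosome-depleted, stranded total RNA in pairs of 50-base reads, aligned each parental strain to its own Ensembl release 103 genome with Bowtie2 2.2.9 and the F1 to a masked genome with STAR 2.6, and normalised the counts of each table with DESeq2 1.28.1. The sources used here do not say how reads were counted per gene or on which annotation. The deposited values are a signal, counts divided by size factors, and all came out as whole reads (within 0.01) once the value of 1 read was recovered. Here the genes in both strain tables with a joint mean of at least 5 were rescaled together by TMM (edgeR 4.0.16), log2-transformed after adding 1 and tested with limma 3.58.1 (R 4.3.3), its prior variance following the mean and without a replicate block. F1 values, used for description only, came from a separate TMM rescaling of the F1 and parental control livers together. The parental values they are set beside came from the rescaling without the F1. The count tests edgeR and DESeq2 1.42.0 on the recovered reads were alternatives, as were other filters, pseudocounts, scalings, the replicate number as a block, and each library left out. Scripts were tested on simulated data.

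The 5 libraries held 10513517 to 15125429 reads, and no 2 were duplicates. Named genes, other than Nnt, Mx1, Mx2 and Oas1b, which were named whatever their values, were called, had non-overlapping groups and a mean of at least 50. They were the 12 largest differences in each direction with at least 10 in every library, the 6 largest in each direction with a lower library, up to 5 per list, and the 8 smallest adjusted p of the interaction. Other genes named were chosen after their values were seen. The members and lists were chosen with earlier results of these data known. The reference annotation (GENCODE M21, GRCm38) is not the authors' build and was used for names and neighbours only, and promoters come from RefSeq. Symbols were found for 19146 of 19161 tested genes.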

Additional observations from a re-analysis of the deposited data

Results flagged for a closer look

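In 13 named genes the strain difference was called in opposite directions in liver and kidney. The interaction of strain and organ passed in each, as it did in all 36 genes of this kind. The interaction uses the same libraries as these calls, so genes called in opposite directions pass it nearly by construction. That all passed adds no support to the opposite calls. Values here are the interaction, that is the log2 fold change in control liver minus that in control kidney (B6 minus CAST in both). The groups held 2 or 3 libraries, too few for a test of single outlying values per gene. Of the 13, 6 lost their liver call with 1 library left out, none with a change of sign: Cyp7b1 and Mettl7a2 without CAST control 2 or 3 (adjusted p = 0.086 to 0.104), Acot3, Cyp39a1 and Nqo1 without CAST control 3 (0.0577, 0.0766 and 0.128), and Afmid without B6 control 2, B6 control 3 or CAST control 2 (0.0519 to 0.173).

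Of the genes higher in B6 liver and lower in B6 kidney, the adhesion receptor gene Adgrf1 had an interaction of 8.26 (SE 0.73, adjusted p = 3.65e-05), with 94.2, 185 and 257 counts in B6 livers, against 2.24 and 0 in CAST livers, where so few reads make the size depend on the added count. The bile acid transporter gene Slc10a2 had 4.94, with 1238, 864 and 847 in B6 kidneys, against 1875, 1601 and 3052 in CAST kidneys. The acid phosphatase gene Acpp had 6.15, with 159, 127 and 150 counts in B6 livers, against 2.24 and 6.36 in CAST livers. Its size too depends on the added count. Akr1c12, an aldo-keto reductase gene, had 3.71, the thioesterase gene Acot3 had 3.29 and Afmid, an enzyme of tryptophan breakdown, had 2.45.

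Among genes lower in B6 liver and higher in B6 kidney, Cyp7b1 had an interaction of -3.95 (SE 0.50, adjusted p = 6.60e-04), with 2274, 2257 and 2326 in B6 kidneys, against 515, 665 and 448 in CAST kidneys. Cyp39a1 had -2.94, Gsta2 had -3.78 and Nqo1 had -2.97. Gna14, a G protein alpha subunit gene, had -4.46, Olfm1 had -3.74 and Mettl7a2 had -3.73. In addition, Pparg (6.39), Akr1c18 (-8.27) and Fam129b (-3.31) were among the genes with the smallest adjusted p of the interaction and were not called in kidney. Pparg in CAST livers and Akr1c18 in B6 livers had so few reads that these sizes depend on the added count.

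In the B6 liver table, 6 genes with a mean deposited count of at least 50 had no row in the CAST liver table and entered no comparison. Fitm1, which promotes the formation of lipid droplets, averaged 452.08 in B6 livers, with 623, 257 and 476 in controls 1, 2 and 3. It was at 138, 122 and 117 in B6 control kidneys, against 8.34, 6.12 and 7.52 in CAST control kidneys, in tables that were scaled apart. The kinase gene Dclk3 averaged 147.02 in B6 livers, 9030616G12Rik 93.03, Cib3 87.58, Gm35986 72.88 and Fam213b 71.02. Of the 6, 3 (Fitm1, Dclk3 and Fam213b) were listed in CAST kidney. Whether the other 3 are annotated in the CAST genome was not tested.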

How the results depend on the processing

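Of 106 named genes, 71 kept their call or lack of one under all 17 alternatives. Calls were lost most often with limma without trend (32 genes), without CAST control 3 (25) and without CAST control 2 (11). Oas1b, called in no setting, changed sign to -0.20 with the replicate block (adjusted p = 0.873) and to -0.17 without B6 control 1 (adjusted p = 0.95), and ran from -0.17 to 0.45 with 1 library left out. Control livers gave 277 genes higher in B6 and 227 higher in CAST without trend, 392 and 548 with edgeR, 755 and 753 with DESeq2, 378 and 507 with a mean of at least 5 in each strain, and 411 and 481 with no filter. On values as deposited they gave 1101 and 439, of 1540 calls 993 being shared with the 1163. Leaving out 1 library gave 282 to 711 higher in B6 and 190 to 754 higher in CAST. TM livers gave 135 and 156 without trend and 862 and 370 as deposited, and 94 to 403 and 234 to 709 with 1 library left out. Kidneys gave 734 to 1712 and 632 to 1309 with 1 library left out. The interaction passed in 313 genes called in liver, in 188 without trend, and in 154 to 462 with 1 library left out. The cause of these changes was not tested.

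Replicate numbers do not pair the samples by any record. Deviations of same-numbered libraries of the strains correlated at 0.42 and 0.25 in control livers, -0.38 and -0.09 in TM livers, and 0.22, 0.42 and 0.06 in kidneys. Differently numbered control livers correlated at -0.42 to 0.38. With 2 CAST control livers the deviations of these mirror each other, so the correlations come in pairs of opposite sign. With the replicate block the control livers gave 948 genes higher in B6 and 1259 higher in CAST, TM livers 333 and 441, kidneys 1470 and 1171, and the interaction 575. Mx1 was called only under the block among the alternatives run (adjusted p = 0.0131).

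With 3 livers against 2, genes with few reads in 1 strain have fold changes that depend on the added count, and reads of near-identical copies cannot be assigned to 1 gene.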
